A study of Homo sapiens with 4 samples.

Results

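Receptor tyrosine kinases were examined in Hs683, an established human glioma cell line. A list of 46 receptors was taken, and a receptor was included when a probe set (a group of short probes that reads 1 transcript) carried its symbol and no other. This found 43 of the 46, among 17716 genes in all, and where a gene had several probe sets the one with the highest mean over the 4 arrays was used. DDR1 was listed only on a probe set shared with another gene, and ROR2 and EPHB2 were not analysed here. Total RNA was measured on 4 Affymetrix arrays, 6 ug of RNA going into each labelling. The control group, miR-NT, held 2 arrays of QK-knockdown Hs683 cells given a scrambled microRNA without a target, and the other group held 2 arrays of QK-knockdown Hs683 cells given miR-20a. Both groups therefore carry the knockdown of QK, the gene now named QKI, and no array without it was analysed here. The labels name no knockdown reagent and do not say whether the arrays of a group came from separate cultures; the p-values therefore rest on array-to-array spread that may be technical.

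Receptor tyrosine kinases are single-pass membrane proteins that bind a ligand outside the cell, pair up and phosphorylate tyrosines on each other's tails. Adaptor proteins dock on those tyrosines and pass the signal to RAS and the MAP kinases, to phosphoinositide 3-kinase and to phospholipase C gamma, while ubiquitin ligases and phosphatases switch the receptor off. In glioma EGFR, the PDGF receptors and MET are the members best known as drivers, and AXL is known for its part in invasion.

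A microRNA lowers its targets mainly through pairing of its seed, bases 2 to 8, with sites in messenger RNAs. The mature sequence of miR-20a is shown with 3 other human microRNAs of the same seed because these are the letters that set what the added microRNA can pair with; the seed is in capitals and the sequences are from RefSeq (GRCh38.p14, miR-20a-5p at chr13:91351072-91351094, plus strand). RefSeq lists 8 mature human microRNAs with this seed.
miR-20a-5p: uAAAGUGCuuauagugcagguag
miR-20b-5p: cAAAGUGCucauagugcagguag
miR-93-5p: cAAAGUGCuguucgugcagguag
miR-106b-5p: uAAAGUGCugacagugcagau
No messenger RNA sequence was searched for the seed, so nothing here says which receptors are targets.

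The 4 arrays resembled each other closely, with Pearson's r across probe sets from 0.990 to 0.997. QKI gave log2 values of 8.14 and 7.92 under miR-NT, against 7.52 and 7.08 under miR-20a (limma adjusted p = 0.106), and passed as lower when either miR-20a array was left out, at −0.95 without replicate 1 and −0.51 without replicate 2; with the ACTB 5' control described next as a covariate it was at −0.06. The control probe set at the 5' end of ACTB was at 12.78 and 12.66 under miR-NT, against 11.59 and 10.43 under miR-20a. That of GAPDH was at 13.89 and 13.81, against 13.17 and 12.30. Such signals can reflect RNA or labelling quality or the gene's own level, and no signal from the other end was compared. With the ACTB 5' control as a covariate, its slope rests mostly on the miR-20a pair. How far a gene's value moves in that fit depends mostly on its gap within that pair, so it is not separate evidence from that gap. Of 14 glial and glioma markers VIM, CD44, SOX9 and SOX10 lay above the median gene on every array. GFAP, OLIG1, OLIG2, S100B, NES, MBP, CSPG4, SOX2, FABP7 and PDGFRA did not. None of 6 endothelial markers lay above the median gene on every array, and 1 of 6 immune markers, CD3E, did. So did 3 of 5 epithelial markers (KRT18, KRT8 and KRT5, not EPCAM or CDH1) and 2 of 5 neuron markers (TUBB3 and SNAP25).

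The probe sets divided the receptors into 3 groups by signal. A receptor was called clearly measured when it lay above the median of all genes (6.50 to 6.52) on every array, and 13 did: EGFR, PDGFRB, FGFR1, FGFR3, MET, AXL, DDR2, ROR1, RYK, RET, EPHA2, EPHB3 and EPHB4. Of these, 5 also lay above the upper quartile of all genes on every array, namely EGFR, PDGFRB, AXL, DDR2 and EPHA2. A further 11 were weakly measured, above the dimmest 30% of genes but not above the median throughout. PTK7 and EPHB6 came nearest, above the median on 3 of 4 arrays, and MST1R was above it on 1. The remaining 19 were dim, with values from 3.37 to 5.46, among them ERBB2, ERBB3, ERBB4, INSR, KDR, FLT4, TEK, TIE1, MERTK, NTRK2, NTRK3 and ALK. CSF1R was just below the limit of 5.46 on the mean of the 4 arrays and EPHA1 just above it. Signal depends on the probes as well as on the transcript, so no receptor is ranked against another, and a dim probe set does not show that the transcript is absent. As a guide to unspecific signal, 15 genes of unrelated tissues, such as albumin and insulin, had means from 3.65 to 7.51, with CD3E the highest. Their 95th percentile was 6.90 to 7.03 by array. Of these genes 2, CD3E and TG, also lay above the median gene on every array. Being clearly measured therefore does not by itself separate a receptor from background. Of the clearly measured receptors 10 lay above that percentile on every array. FGFR3 did so on 3 arrays and RET and RYK on 2, so their signal is not separated from such background throughout. RYK was above it under miR-NT only, and RET under miR-20a only. None of the 11 weakly measured and 19 dim receptors lay above that percentile on any array. Among the deposited values only 1 receptor, EPHA4, had more than 1 probe set, and only 338 of 17716 genes did. Every other receptor, EGFR and ERBB2 included, was read by a single listed probe set. How the listed probe sets were chosen was not given, so other readings of these receptors could not be compared. For 3 receptors, MET, RET and ERBB2, the probe set's name carries an x, which marks probes that can also bind other sequences. For 19, among them RYK, FGFR1, TYRO3, AXL and FGFR3, it carries an s, which marks probes shared by several transcripts.

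**Figure D1:**
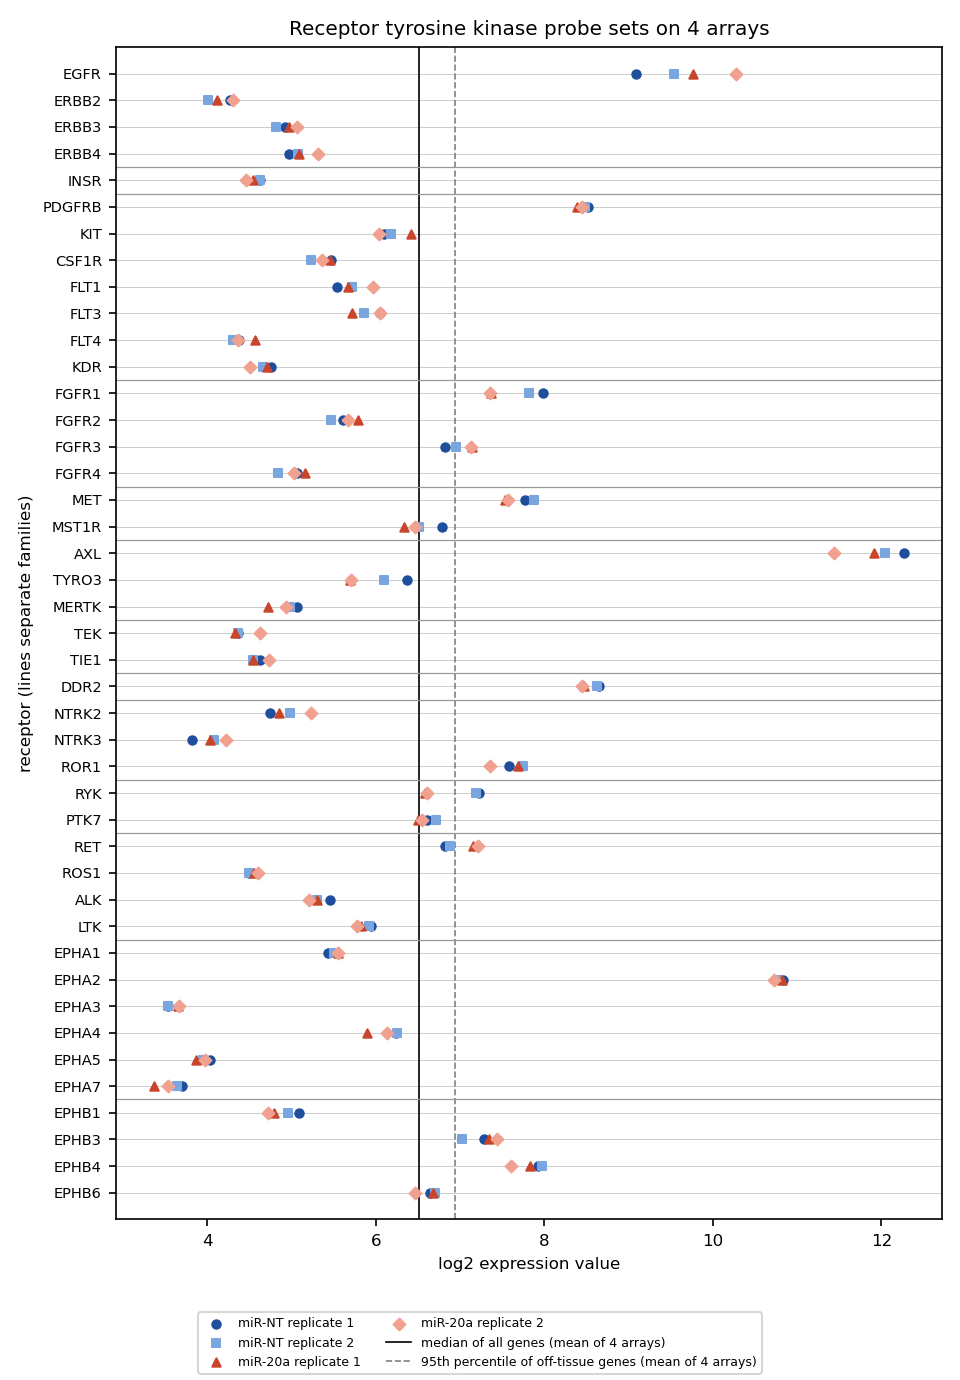
Log2 expression values (horizontal axis) of the 43 receptors (rows, in families) on the 2 miR-NT and 2 miR-20a arrays, 1 symbol per array, with the median of all genes and the 95th percentile of the off-tissue genes as lines. The 13 clearly measured receptors lie to the right of the solid line on every array, and the 4 symbols of most receptors lie close together.

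Between the groups no receptor passed the test. The comparison asks which receptors go with the addition of miR-20a in a background of reduced QKI. Of the 24 receptors above the dim limit, 0 were higher and 0 were lower with miR-20a at a limma adjusted p under 0.05 (0% and 0.00806% of 12401 genes). At an unadjusted p under 0.05, 3 were higher (EGFR, RET and FGFR3), where 5.82% of all genes tested were, and 5 were lower (RYK, FGFR1, TYRO3, AXL and MET), where 13.2% were. The groups did not overlap for 6 receptors with higher and 12 with lower values, against 25.1% and 31.1% of all genes tested. Fitted values were above 0 for 8 receptors (46.2% of all genes) and below 0 for 16 (53.8%). The median log2 fold change of the 24 was −0.12 and that of all genes was −0.02. All 24 had both group means above the dim limit. Differences were small: 17 of the 24 were under 1.2-fold and 2, EGFR and RYK, were at least 1.5-fold. Calls depended on which array was left out, in fits that take a group's spread from the other group alone. Without miR-20a replicate 1, EGFR passed as higher (log2 fold change 0.96) and AXL (−0.72), FGFR1 (−0.55), RYK (−0.61) and TYRO3 (−0.53) as lower, when 302 genes passed as higher and 1567 as lower in all. Without miR-20a replicate 2, FGFR1 (−0.53), RYK (−0.62) and TYRO3 (−0.55) passed as lower, when 29 and 231 genes did. No receptor passed without either miR-NT array, and 1 (EPHB3) was then higher and 3 (FGFR1, RYK and TYRO3) lower at an unadjusted p under 0.05 without miR-NT replicate 1, as 310 and 549 of all genes were.

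**Figure D2:**
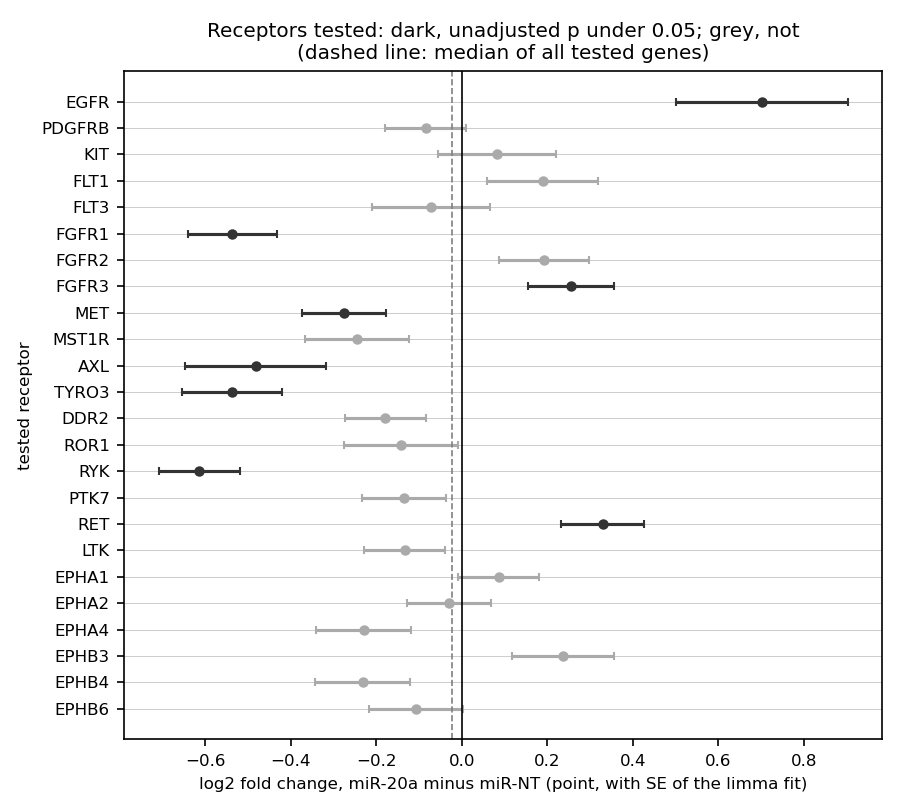
Log2 fold change of miR-20a minus miR-NT (horizontal axis) for the 24 tested receptors, with the SE of the limma fit as bars. Dark points have an unadjusted p under 0.05; they run from −0.61 for RYK to 0.70 for EGFR, and none passed after adjustment over all genes.

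EGFR, the receptor of EGF, HB-EGF and other EGF-like ligands, had the largest positive value among the tested receptors. Its probe set 1565483_at was at 9.08 and 9.54 under miR-NT, against 9.76 and 10.27 under miR-20a. Both miR-20a arrays lay above both miR-NT arrays, but the pairs were spread widely. The means were 9.31 ± 0.33 and 10.01 ± 0.36 (SD, n = 2 each), 1.63-fold higher with miR-20a (log2 fold change 0.70, SE 0.20, limma adjusted p = 0.16). Leaving out miR-NT replicate 1 gave 0.47 and leaving out miR-NT replicate 2 gave 0.93; for the miR-20a arrays the values were 0.96 (replicate 1 left out) and 0.45 (replicate 2 left out). The gap within the miR-20a pair was 0.51, and the gap within the miR-NT pair was 0.46. EGFR was highest on the array where the ACTB 5' signal was lowest. Its log2 fold change was −0.11 once that signal entered the fit as a covariate (SE 0.25). The covariate fit gave every tested receptor this same SE, so it does not describe EGFR's own spread. The other ErbB receptors were dim: ERBB2, a co-receptor without a ligand of its own, ERBB3, a neuregulin receptor with a nearly inactive kinase, and ERBB4, a neuregulin receptor, lay between 4.01 and 5.31 over all arrays. INSR, the insulin receptor, was dim as well, with 4.62 and 4.63 against 4.55 and 4.46.

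In the PDGF and VEGF receptor class PDGFRB, which binds PDGF-B and PDGF-D, was the clearly measured member. It was at 8.51 and 8.49 under miR-NT, against 8.39 and 8.44 under miR-20a. The groups did not overlap, yet the log2 fold change was −0.08 with a 95% interval of −0.31 to 0.14 (SE 0.10, limma adjusted p = 0.612). PDGFRA was not in the receptor list but among the glioma markers, below the median gene on every array. It measured 5.60 and 5.58 against 5.97 and 5.95 (log2 fold change 0.37, SE 0.09, limma adjusted p = 0.136). KIT, the stem cell factor receptor, measured 6.10 and 6.18 against 6.41 and 6.03, so the miR-20a pair enclosed the miR-NT pair. FLT1, a VEGF receptor (5.54 and 5.72 against 5.67 and 5.96), and FLT3, the FLT3 ligand receptor (6.05 and 5.86 against 5.71 and 6.05), also overlapped. CSF1R, the receptor of the macrophage growth factor CSF1, and the VEGF receptors KDR and FLT4 were dim. TEK, the angiopoietin receptor, and its relative TIE1 were dim too; with KDR they are 3 of the 6 endothelial markers.

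The FGF receptors, which bind fibroblast growth factors together with heparan sulfate, did not move alike. FGFR1 (probe set 210973_s_at) was at 7.99 and 7.81 under miR-NT, against 7.37 and 7.35 under miR-20a. The miR-20a arrays were both lower and close to each other. The means were 7.90 ± 0.12 and 7.36 ± 0.01 (SD, n = 2 each), 1.45-fold lower with miR-20a (log2 fold change −0.54, SE 0.10, limma adjusted p = 0.0963). FGFR3 (204379_s_at) was at 6.82 and 6.95 under miR-NT, against 7.15 and 7.13 under miR-20a, both miR-20a arrays being higher. Its log2 fold change was 0.25 (SE 0.10, limma adjusted p = 0.239). FGFR2, weakly measured, was at 5.61 and 5.47 against 5.78 and 5.67 (log2 fold change 0.19, SE 0.10), and FGFR4 was dim. Between the miR-20a arrays, where the ACTB 5' control differed by −1.16, FGFR1 and FGFR3 differed by −0.02 and −0.01. With the ACTB 5' control in the fit FGFR1 was at −0.49 and FGFR3 at 0.25 (SE 0.25 each). Small gaps within the miR-20a pair keep values nearly unmoved in that fit by construction.

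MET, the receptor of hepatocyte growth factor, was at 7.77 and 7.88 under miR-NT, against 7.54 and 7.57 under miR-20a (211599_x_at). Both miR-20a arrays were lower. The log2 fold change was −0.28 (SE 0.10, 1.21-fold lower, limma adjusted p = 0.216), and the miR-20a arrays differed from each other by 0.03. MST1R, the receptor of macrophage-stimulating protein and the relative of MET, measured 6.78 and 6.51 against 6.33 and 6.47 (log2 fold change −0.25, SE 0.12).

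The TAM receptors bind GAS6 and protein S and act in the uptake of dying cells, survival and invasion. AXL (202686_s_at) was at 12.27 and 12.05 under miR-NT, against 11.91 and 11.44 under miR-20a. The groups did not overlap, but miR-20a replicate 1 lay nearer to miR-NT replicate 2 than to its own partner. The means were 12.16 ± 0.16 and 11.68 ± 0.33 (SD, n = 2 each), 1.40-fold lower with miR-20a (log2 fold change −0.48, SE 0.16, limma adjusted p = 0.204). The array order of AXL was that of the ACTB 5' signal; leaving out miR-20a replicate 2 gave −0.25, and the covariate fit gave 0.24 (SE 0.25). TYRO3 (211431_s_at) was at 6.37 and 6.10 under miR-NT, against 5.69 and 5.71 under miR-20a. Its miR-20a arrays were lower and nearly equal, with a within-pair difference of 0.02. TYRO3 was weakly measured, below the median gene on all 4 arrays. Like every weakly measured receptor, it lay below the off-tissue 95th percentile on all 4 arrays, so its signal is not separated from background. The log2 fold change was −0.54 (SE 0.12, limma adjusted p = 0.111) and −0.53 with the ACTB 5' covariate. MERTK, the remaining TAM receptor, was dim, at 5.06 and 4.99 against 4.72 and 4.94.

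**Figure D3:**
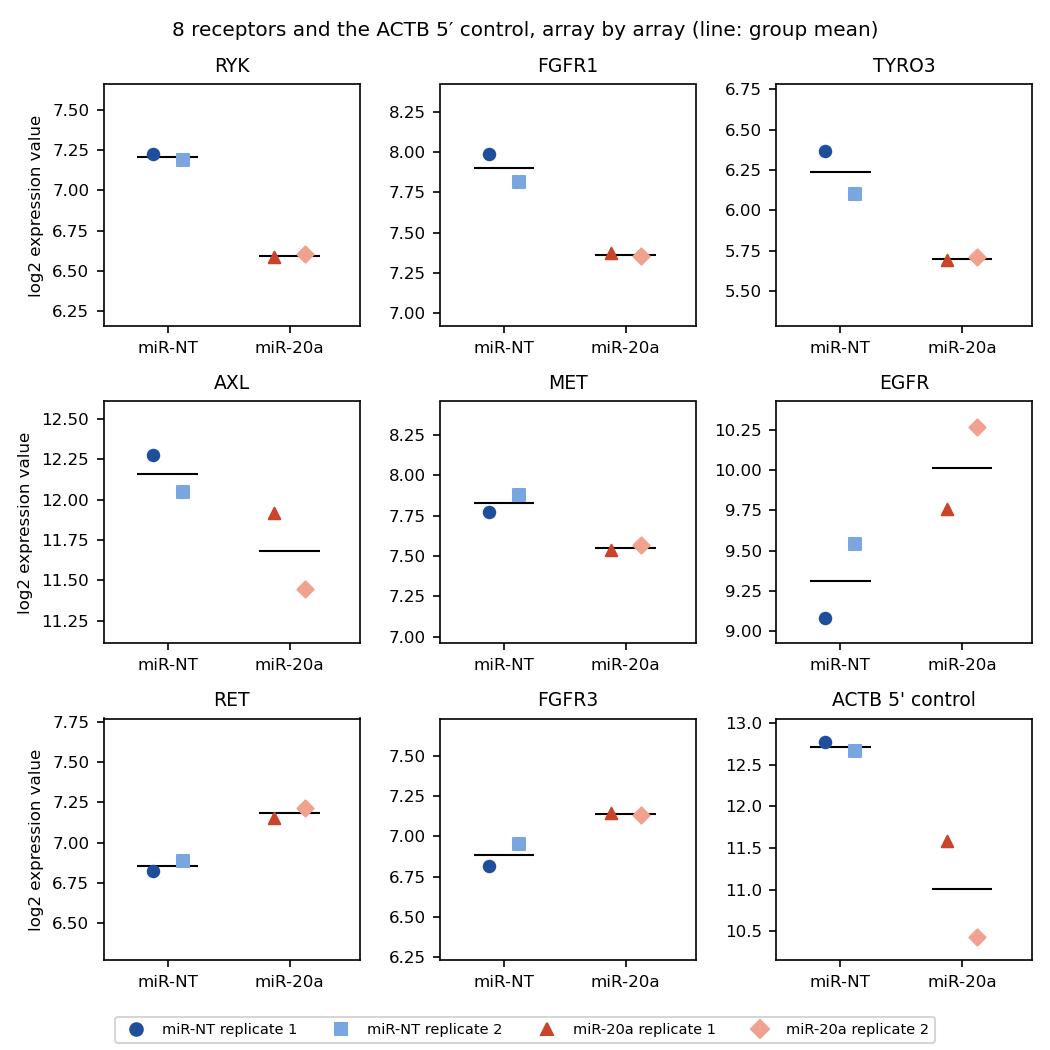
Log2 expression values on each array (vertical axis, each panel with its own range) for the 8 receptors with an unadjusted p under 0.05 and the ACTB 5' control, with group means as lines. RYK, FGFR1, TYRO3, MET, RET and FGFR3 have nearly equal miR-20a arrays, while AXL and EGFR differ within the miR-20a pair by −0.47 and 0.51, and the ACTB 5' control by −1.16.

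RYK, a Wnt co-receptor with a kinase domain that is held to be inactive, had the smallest p among the receptors. Its probe set 216976_s_at was at 7.23 and 7.19 under miR-NT, against 6.59 and 6.60 under miR-20a. The pairs were tight and well apart, but the miR-20a arrays lay below the off-tissue 95th percentile. The means were 7.21 ± 0.03 and 6.59 ± 0.01 (SD, n = 2 each), 1.53-fold lower with miR-20a (log2 fold change −0.61, SE 0.09, 95% interval −0.83 to −0.39), which did not pass over all genes (limma adjusted p = 0.0788). Its value ran from −0.63 to −0.59 over 13 alternatives. Several of these, such as other filters on dim genes, another variance prior and the replicate block, cannot move it. The range is therefore not 13 separate checks. With the ACTB 5' covariate the value was −0.63 (SE 0.25, the same for all tested receptors). A gap of 0.02 within the miR-20a pair keeps RYK nearly unmoved in that fit by construction. PTK7, a pseudokinase of the planar cell polarity pathway, measured 6.60 and 6.72 against 6.50 and 6.55 (log2 fold change −0.14, SE 0.10). ROR1, a WNT5A receptor, was at 7.58 and 7.74 under miR-NT, against 7.68 and 7.36 under miR-20a, and the groups overlapped (log2 fold change −0.14, 95% interval −0.45 to 0.17). DDR2, a receptor activated by fibrillar collagen, measured 8.64 and 8.62 against 8.47 and 8.44. The miR-20a arrays of DDR2 were both lower by a small step (log2 fold change −0.18, SE 0.09, limma adjusted p = 0.329). The neurotrophin receptors NTRK2 and NTRK3 were dim.

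RET, the signalling receptor of the GDNF family, was at 6.82 and 6.88 under miR-NT, against 7.15 and 7.22 under miR-20a (215771_x_at). Both miR-20a arrays were higher and the spread within each pair was 0.06, but the miR-NT arrays lay below the off-tissue 95th percentile. The log2 fold change was 0.33 (SE 0.10, 1.26-fold higher, limma adjusted p = 0.165), and 0.23 with the ACTB 5' covariate. LTK measured 5.94 and 5.92 against 5.82 and 5.77 (log2 fold change −0.13, SE 0.10). Its relative ALK and the orphan-like receptor ROS1 were dim.

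The Eph receptors bind ephrins on neighbouring cells and act in repulsion and tissue boundaries. EPHA2 was at 10.83 and 10.77 under miR-NT, against 10.82 and 10.73 under miR-20a. The groups overlapped, and the log2 fold change of −0.03 had a 95% interval of −0.26 to 0.20 (limma adjusted p = 0.861), the smallest difference among the tested receptors; it was 0.09 after quantile normalization. EPHB4, the receptor of ephrin-B2, measured 7.93 and 7.97 against 7.83 and 7.61 (log2 fold change −0.23, SE 0.11, limma adjusted p = 0.297), and was at 0.09 with the ACTB 5' covariate. EPHB3 measured 7.29 and 7.02 against 7.34 and 7.44 (log2 fold change 0.24, SE 0.12, limma adjusted p = 0.317). The miR-20a arrays of EPHB3 were both higher. Its value was 0.10 without miR-NT replicate 2, 0.37 without miR-NT replicate 1 and 0.13 with the ACTB 5' covariate. EPHA4 was weakly measured, at 6.24 and 6.25 against 5.90 and 6.13 (log2 fold change −0.23, SE 0.11). A second, dim EPHA4 probe set gave a difference of 0.05, so the probe sets of this gene differ in sign. EPHA1 (5.43 and 5.50 against 5.55 and 5.55) and EPHB6, which lacks kinase activity (6.65 and 6.70 against 6.67 and 6.46), had log2 fold changes of 0.09 and −0.11. EPHA3, EPHA5, EPHA7 and EPHB1 were dim. Over the 19 dim receptors of all families the untested differences ran from −0.26 to 0.18, 12 above 0 and 7 below.

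**Figure D4:**
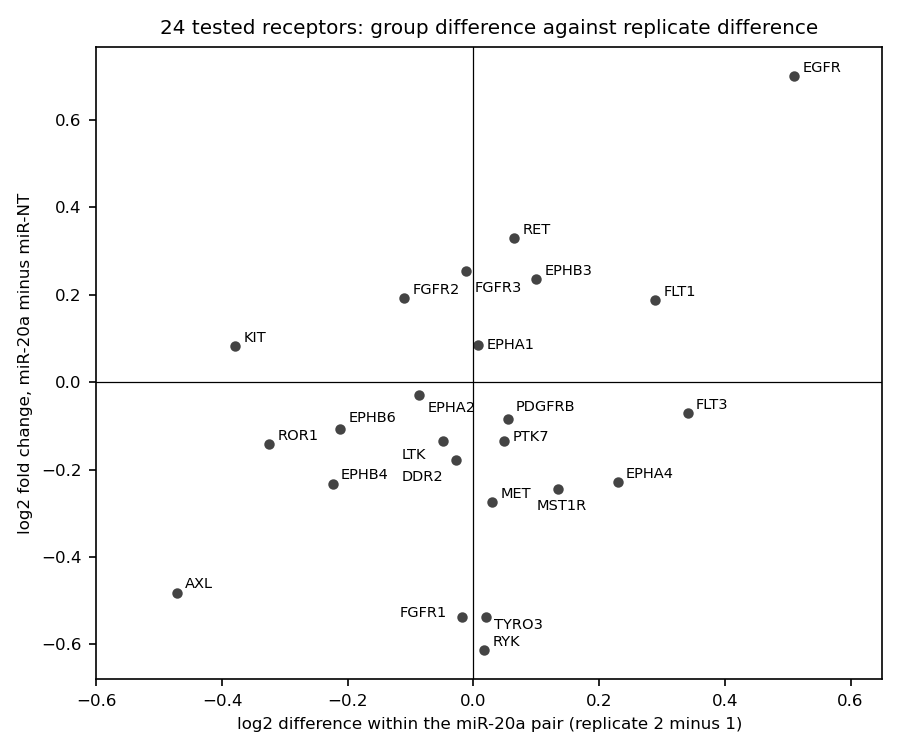
Log2 fold change of miR-20a minus miR-NT (vertical axis) against replicate 2 minus replicate 1 of miR-20a (horizontal axis), a point for each of the 24 tested receptors; both hold the miR-20a arrays. RYK, FGFR1 and TYRO3 lie at the bottom near a within-pair difference of 0, while AXL and EGFR lie far out on both axes.

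For 11 of the 24 tested receptors miR-20a replicate 2, where the ACTB 5' control was lower, was the lower of the pair, as it was for 7309 of 12401 genes. AXL, ROR1, EPHB4 and KIT were lower in it by 0.47, 0.32, 0.22 and 0.38, and EGFR, FLT3, FLT1 and EPHA4 were higher in it by 0.51, 0.34, 0.29 and 0.23. With the ACTB 5' control in the fit 17 of the 24 kept the sign of their value; EGFR, AXL, ROR1, EPHA2 and EPHB4 among the clearly measured receptors did not, nor did FLT1 and EPHB6 among the weakly measured. The part of RNA or labelling quality in these values was not tested.

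Ligands of receptor tyrosine kinases, not only of the clearly measured ones, were on the arrays too. Of 48 ligand genes 44 were listed and 29 tested; 0 passed over all genes, and at an unadjusted p under 0.05 in limma 0 were higher and 6 lower (20.7%), where 5.82% and 13.2% of all genes tested were. The ligands' median log2 fold change was −0.04, and 0.07 with the ACTB 5' covariate. HGF, the ligand of MET, was at 8.50 and 8.29 under miR-NT, against 8.03 and 7.94 under miR-20a (log2 fold change −0.41, SE 0.11, limma adjusted p = 0.152), so that HGF and MET were both lower on both miR-20a arrays. VEGFA (log2 fold change −0.38), the FLT3 ligand FLT3LG (−0.39) and PDGFD (−0.32), a ligand of PDGFRB, followed by p, with limma adjusted p from 0.158 to 0.177. Among ligands named for their receptors after their values were seen, GAS6, the AXL and TYRO3 ligand, measured 9.43 and 9.28 against 9.39 and 9.09, and HBEGF, an EGFR ligand, 9.28 and 9.17 against 9.30 and 9.23. Both overlapped between the groups. Leaving out miR-20a replicate 1, HGF (−0.45), VEGFA (−0.46) and FLT3LG (−0.48) passed as lower. With the ACTB 5' covariate the values were −0.24 for HGF, −0.11 for VEGFA, −0.08 for FLT3LG and −0.16 for PDGFD. WNT5A, a ligand of ROR1 and RYK, measured 11.37 and 11.11 against 11.05 and 11.02, and EFNB2, the ephrin of EPHB4, 9.77 and 9.41 against 9.71 and 9.57.

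Of 26 adaptors and signal carriers 16 were tested, 2 of them higher (12.5%) and 4 lower (25%) at an unadjusted p under 0.05, against 5.82% and 13.2% of all genes. None of these adaptors passed the adjusted threshold in limma, and their median log2 fold change was −0.02. NCK1, an adaptor that links receptors to the actin cytoskeleton, measured 8.96 and 8.72 against 8.40 and 8.04 (log2 fold change −0.62, SE 0.15, limma adjusted p = 0.122). SHC1, which couples receptors to GRB2 and RAS, measured 9.46 and 9.27 against 9.01 and 8.50 (−0.61, SE 0.17, limma adjusted p = 0.157). For both adaptors miR-20a replicate 2 was the lowest array, and with the ACTB 5' covariate they were at −0.05 and 0.17. IRS1, the docking protein of insulin and IGF receptors, measured 7.15 and 7.15 against 7.45 and 7.48 (0.32, SE 0.09, limma adjusted p = 0.168), and the kinase SRC had a log2 fold change of −0.29. IRS1 was at 0.28 with the covariate. Leaving out miR-20a replicate 1, NCK1 (−0.80) and SHC1 (−0.87) passed as lower.

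Regulators that switch receptors off had 16 tested members of 23 listed, 2 higher (12.5%) and 5 lower (31.2%) at an unadjusted p under 0.05, against 5.82% and 13.2% of all genes. None of these regulators passed the adjusted threshold in limma, and their median log2 fold change was −0.18. PTPN12, a phosphatase that acts on receptors, measured 9.38 and 9.30 against 9.09 and 8.58 (log2 fold change −0.51, SE 0.16, limma adjusted p = 0.186) and was at 0.24 with the ACTB 5' covariate. It passed as lower, at −0.76, when miR-20a replicate 1 was left out. ERRFI1, an inhibitor of EGFR, measured 12.25 and 12.23 against 12.02 and 11.96 (−0.25, SE 0.10). DOK1 and SPRED1, which dampen RAS signalling, had values of 0.30 and 0.24. The list's median was −0.08 without miR-20a replicate 2, −0.10 without miR-NT replicate 1 and 0.12 with the ACTB 5' covariate.

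Genes that receptor signals are known to induce had 20 tested members of 22, 3 higher (15%) and 5 lower (25%) at an unadjusted p under 0.05, against 5.82% and 13.2% of all genes. None of these targets passed the adjusted threshold in limma, and their median log2 fold change was 0.01. PHLDA1, induced by growth factors, measured 7.93 and 7.90 against 7.05 and 6.48 (log2 fold change −1.15, SE 0.17, limma adjusted p = 0.0788) and was at −0.32 with the ACTB 5' covariate. PHLDA1 passed as lower after median centring (−1.15) and when either miR-20a array was left out, at −1.44 for replicate 1 and −0.87 for replicate 2. MYC had a log2 fold change of −0.36, DUSP6, the phosphatase of ERK, −0.33 and the early gene EGR1 0.27, with limma adjusted p from 0.222 to 0.238. DUSP6 measured 8.60 and 8.29 against 8.11 and 8.13, and EGR1, below the median gene, 6.00 and 6.02 against 6.19 and 6.37. With the ACTB 5' covariate MYC was at 0.17, EGR1 at 0.01 and DUSP6 at −0.31. MYC passed as lower, at −0.53, when miR-20a replicate 1 was left out. SPRED1, SPRY2 and SPRY4 stand in both this list and that of the regulators. Since RNA was measured in bulk, fewer cells with a transcript and less of it per cell cannot be told apart for any gene named here.

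**Figure D5:**
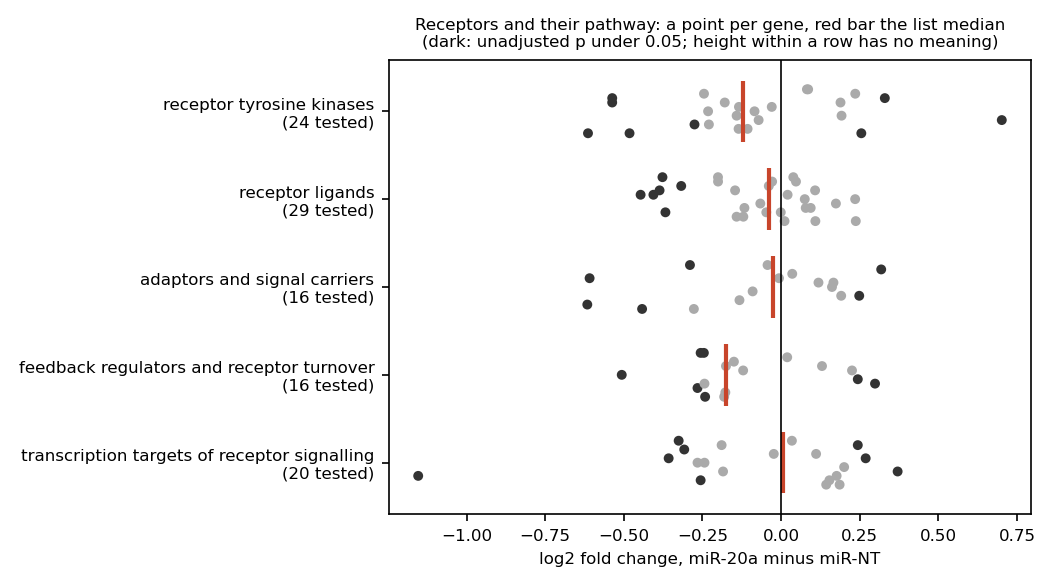
Log2 fold change of miR-20a minus miR-NT (horizontal axis) for the tested receptors, ligands, adaptors, feedback regulators and transcription targets, a point per gene, with list medians as bars. The medians lie between −0.18 for the feedback regulators and 0.01 for the targets, where that of all genes was −0.02, and PHLDA1 at −1.15 is the point farthest from 0.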

How the data were processed

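The values are log2 expression values as the authors deposited them, 1 per probe set and array, with the log2 scale judged from their range. Per the submitters' processing notes the R package affy was used; version, summarisation, background correction, normalization and how the 20323 probe sets were chosen: not given in the sources used here. Gene symbols came from GEO's platform table and were brought up to date in RefSeq by gene identifier; 18060 had 1 symbol and 886 several. The brightest probe set stood for a gene, control probe sets were left out, and the 5315 dimmest of 17716 genes (30%, by mean over all arrays) were not tested. Genes were compared with limma 3.58.1 in R 4.3.3 (lmFit, eBayes, two-sided, no covariate, Benjamini-Hochberg over 12401 genes, threshold 0.05; 2 residual and 5.53 prior degrees of freedom). The script was tested on simulated data. An exact permutation test of 2 against 2 arrays cannot go below p = 0.333 and was not run. The number of arrays limits the precision. Named were all receptors, with full values where clearly measured or at an unadjusted p under 0.05, and the 4 genes of each pathway list with the smallest p; other genes named were chosen after their values were seen. Members, lists and tests were chosen with earlier results of these data known. Alternatives were quantile normalization, median centring, other filters on dim genes, another variance prior, other handling of probe sets, the replicate number as a block, the ACTB 5' control as a covariate and leaving out each array.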

Additional observations from a re-analysis of the deposited data

How the results depend on the processing

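The count of receptors past the adjusted threshold stayed at 0 in both directions in every alternative except the fits without a miR-20a array; with an array left out it ranged from 0 to 1 higher and from 0 to 4 lower. At an unadjusted p under 0.05 it ranged with an array left out from 1 to 4 higher and from 3 to 6 lower, where all genes ranged from 309 to 1048 and from 549 to 2541. With the ACTB 5' covariate 1 was higher (KIT) and 4 were lower (RYK, EPHA4, TYRO3 and FLT3), against 417 and 429 of all genes. EGFR, RET and FGFR3, higher as reported, and AXL, FGFR1 and MET, lower as reported, were then not called. These calls rest on the same SE for every receptor. The receptors' median log2 fold change ranged from −0.14 to −0.07 over all alternatives. With the upper quartile of all genes as the reference 5 receptors were clearly measured. The feedback regulators' median was −0.13 after quantile normalization, −0.14 with no dim filter, 0.12 with the covariate, and ranged from −0.25 to −0.078 with an array left out. The targets' median was −0.18 with the dimmest 50% left out and 0.15 with the covariate, and that of the adaptors 0.17 with the covariate. Receptors whose value changed sign with the ACTB 5' covariate were EGFR (−0.11), AXL (0.24), ROR1 (0.31), EPHA2 (0.11), EPHB4 (0.091), FLT1 (−0.26) and EPHB6 (0.20). Pathway genes that did so included SHC1 (0.17), PTPN12 (0.24) and MYC (0.17). The ligands' median changed sign as well (0.07). EPHA2 was also at 0.092 after quantile normalization. With an array left out EPHA2 ranged from −0.073 to 0.014, above 0 without miR-NT replicate 1 or miR-20a replicate 2, and ROR1 from −0.30 to 0.021, above 0 without miR-20a replicate 2. The cause was not tested. Over all genes 1 was lower in the test as reported, 6 after quantile normalization, 45 after median centring, 23 with an intensity trend and robust prior, 4 with the dimmest 50% left out and 5 with the covariate. After quantile normalization 1584 genes were higher at an unadjusted p under 0.05, where 722 were as reported. With the replicate number as a block 0 receptors passed, and 3 were higher and 5 lower at an unadjusted p under 0.05; same-numbered deviations correlated at 0.27, and with 2 pairs the numbers do not establish a pairing.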
